A study of Homo sapiens with 9 samples.

Results

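The 8 genes described here encode the plasminogen activators PLAU and PLAT, the receptor PLAUR, the serpins SERPINE2 and SERPINB2, and the metalloproteinase inhibitors TIMP1, TIMP2 and TIMP3. They were taken by gene name from the deposited table of 36785 genes, and all 8 were among the 21296 genes that passed the filter on low counts. The table comes from RNA-seq of SKOV3 cells, a long-used human line grown from ovarian carcinoma, transduced with lentivirus in every group. The groups were sh1, with the genotype STXBP6 knockdown_1, sh3, with the genotype STXBP6 knockdown_3, and shNC, with the genotype NC, each with 3 libraries. STXBP6 encodes amisyn, a protein that binds SNARE proteins of membrane fusion, and the study asked what its knockdown does in these cells. Nothing in the labels tells whether replicates were separate cultures, pools or clones, so every p-value reflects only how these libraries scatter, which may be technical.

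The plasminogen activators PLAU (urokinase) and PLAT (tissue-type activator) are secreted serine proteases that cut plasminogen into plasmin, a protease that degrades fibrin and matrix and can activate precursors of matrix metalloproteinases. PLAUR anchors urokinase at the cell surface, while SERPINB2 and SERPINE2 inhibit the activators. TIMPs inhibit matrix metalloproteinases, and TIMP2 also bridges MMP14 and the precursor of MMP2 at the cell surface, a complex in which MMP14 activates MMP2. In ovarian cancer both systems are studied for their part in invasion through matrix and the peritoneal lining.

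Of the 4 genes that differed between the knockdown groups by the test given further on, PLAU, PLAUR and SERPINB2 have promoters in RefSeq's table (GRCh38.p14), and the 250 bases before their starts are shown for reference, 5′ to 3′ on the gene's strand. Capitals mark matches to the AP-1 type motif TGANTCA or to the TATA box TATAAA, searched on both strands together with the GC box GGGCGG, which is left in lower case. For PLAU the table holds 2 starts, and the downstream window is printed (chr10:73910882-73911131, plus strand). The PLAUR window is chr19:43670170-43670419 on the minus strand, and the SERPINB2 window is chr18:63887455-63887704 on the plus strand.
PLAU: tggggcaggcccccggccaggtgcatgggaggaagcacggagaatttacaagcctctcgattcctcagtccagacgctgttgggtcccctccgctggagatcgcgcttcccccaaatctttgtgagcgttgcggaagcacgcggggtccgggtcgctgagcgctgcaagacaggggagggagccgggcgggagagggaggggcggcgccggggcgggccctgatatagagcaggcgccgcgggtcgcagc
PLAUR: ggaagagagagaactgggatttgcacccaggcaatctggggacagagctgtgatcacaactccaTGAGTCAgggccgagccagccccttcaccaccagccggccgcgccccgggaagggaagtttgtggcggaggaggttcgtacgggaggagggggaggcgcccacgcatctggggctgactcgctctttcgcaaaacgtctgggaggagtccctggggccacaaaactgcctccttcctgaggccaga
SERPINB2: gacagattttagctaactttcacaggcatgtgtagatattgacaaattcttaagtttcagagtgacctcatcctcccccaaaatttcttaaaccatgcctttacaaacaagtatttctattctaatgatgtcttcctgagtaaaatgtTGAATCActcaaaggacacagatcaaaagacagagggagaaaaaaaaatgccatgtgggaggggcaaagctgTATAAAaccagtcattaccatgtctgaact
The PLAUR window held an AP-1 type match at position -186, counted back from the start, and the SERPINB2 window held one at position -102 with a TATA box at position -30. These matches did not overlap each other. The printed PLAU window held neither motif and had 3 GC boxes, at -66, -51 and -40. The window of the other PLAU start held none of these motifs. The windows of SERPINE2, TIMP1 and TIMP3, not printed, held no AP-1 type match and no TATA box. GC boxes numbered 1 and 2 in the 2 SERPINE2 windows, 2 in TIMP1 and 5 in TIMP3, and the PLAUR and SERPINB2 windows held none. Among all 35116 promoter windows of that length in the table, 6.57% held the AP-1 type motif, 10.7% the TATA box and 42.6% the GC box. A match is a string of letters only, and binding was not measured in this study.

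Library totals were 57654447 to 69264400 counts, which puts 3 counts, the floor used here, at 0.0433 to 0.052 CPM, the count relative to the library's TMM-scaled total. Differences between replicates were larger than sampling noise for every pair. The shNC replicate 3 library stood further from both other shNC libraries (chi-square per degree of freedom 16.9 and 18.9) than any other pair of replicates did (8.9 to 11.1), so values without it are given where they change a call. STXBP6 itself had 7, 4 and 26 counts in sh1, 20, 31 and 18 counts in sh3, and 4, 0 and 15 counts in shNC. Its level was therefore not lower in the knockdown libraries, and the labels could not be checked by it (exact two-sided permutation test of CPM, p = 0.5 for sh1 and 0.1 for sh3, no smaller p than 0.1 being possible with 3 libraries a group). With edgeR its log2 fold change was 0.87 ± 1 in sh1 and 1.81 ± 1 in sh3 (SE, adjusted p = 0.56 and 0.23), and without shNC replicate 3 the value in sh3 was 3.54 (adjusted p = 0.046). Directions below are those of the libraries labelled sh1, sh3 and shNC. The summed level of 10 SKOV3 and ovarian epithelial markers was 719 to 749 in sh1 in FPKM, the authors' unit that scales for gene length and depth, with 1145 to 1191 FPKM in sh3 and 1126 to 1228 FPKM in shNC, with 8 of the 10 above 1 FPKM. Of the markers of other cell types, 3 of 10 for fibroblasts, 3 of 8 for endothelium, 1 of 8 in the table for leukocytes, 3 of 5 in the table for mesothelium and 1 of 7 in the table for hepatocytes were above 1 FPKM, and no marker in the table was at or under 3 counts in every library. The endothelial list summed to 10.5 to 11.7 FPKM in sh1, 26.9 to 28.5 FPKM in sh3 and 31.6 to 33.5 FPKM in shNC. The fibroblast list summed to 20.4 to 21.5 FPKM in sh1, 14 to 14.7 FPKM in sh3 and 16.4 to 19.8 FPKM in shNC. The leukocyte list summed to 10.4 to 11.3 FPKM in sh1, 17.6 to 18.7 FPKM in sh3 and 13.7 to 15.1 FPKM in shNC, and the mesothelial list to 7.77 to 8.27, 8.35 to 10.1 and 12.3 to 18.1 FPKM in the same groups. Counts of markers above 1 FPKM use the mean over the 9 libraries. The part of these lists in the results was not tested.

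Changes are given as log2 fold changes with their standard error (SE) from edgeR's quasi-likelihood fit of all 9 libraries, with calls made where the p adjusted by Benjamini-Hochberg over all 21296 genes was under 0.05. In sh1 cells 2 of the 8 genes rose (PLAU and PLAUR) and 2 fell (PLAT and TIMP2), where 38.7% of all tested genes were called, 19.9% higher and 18.8% lower. In sh3 cells PLAUR rose and 4 genes fell (PLAU, PLAT, SERPINB2 and TIMP2), where 26.9% of all tested genes were called, 14.4% higher and 12.4% lower. The sh3 count was 3 without shNC replicate 2 and likewise 3 without sh3 replicate 1. PLAUR, PLAT and TIMP2 were called in the same direction with both hairpins, as were 19.1% of all tested genes, 10.6% higher and 8.43% lower. PLAU was called in opposite directions, as were 1.23% of all tested genes. Between the hairpins, sh1 minus sh3, PLAU and SERPINB2 were higher and PLAUR and TIMP2 lower, where 25.9% of all tested genes were called, 13% higher and 12.9% lower. In CPM, 5 of the 8 genes did not overlap between sh1 and shNC, 5 between sh3 and shNC and 5 between sh1 and sh3, as against 49.9%, 40.5% and 41.8% of all tested genes. The median absolute log2 fold change of the 8 genes was 0.30 in sh1 and 0.44 in sh3, beside 0.30 and 0.22 over all tested genes. With only 8 genes, the sh3 median falls between the sizes of TIMP3 (0.37, not called) and PLAT (-0.52), so it is loosely set. Both comparisons share the shNC libraries, so they are not independent of each other. In bulk RNA, fewer cells of a kind and less RNA per cell cannot be told apart.

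**Figure D1:**
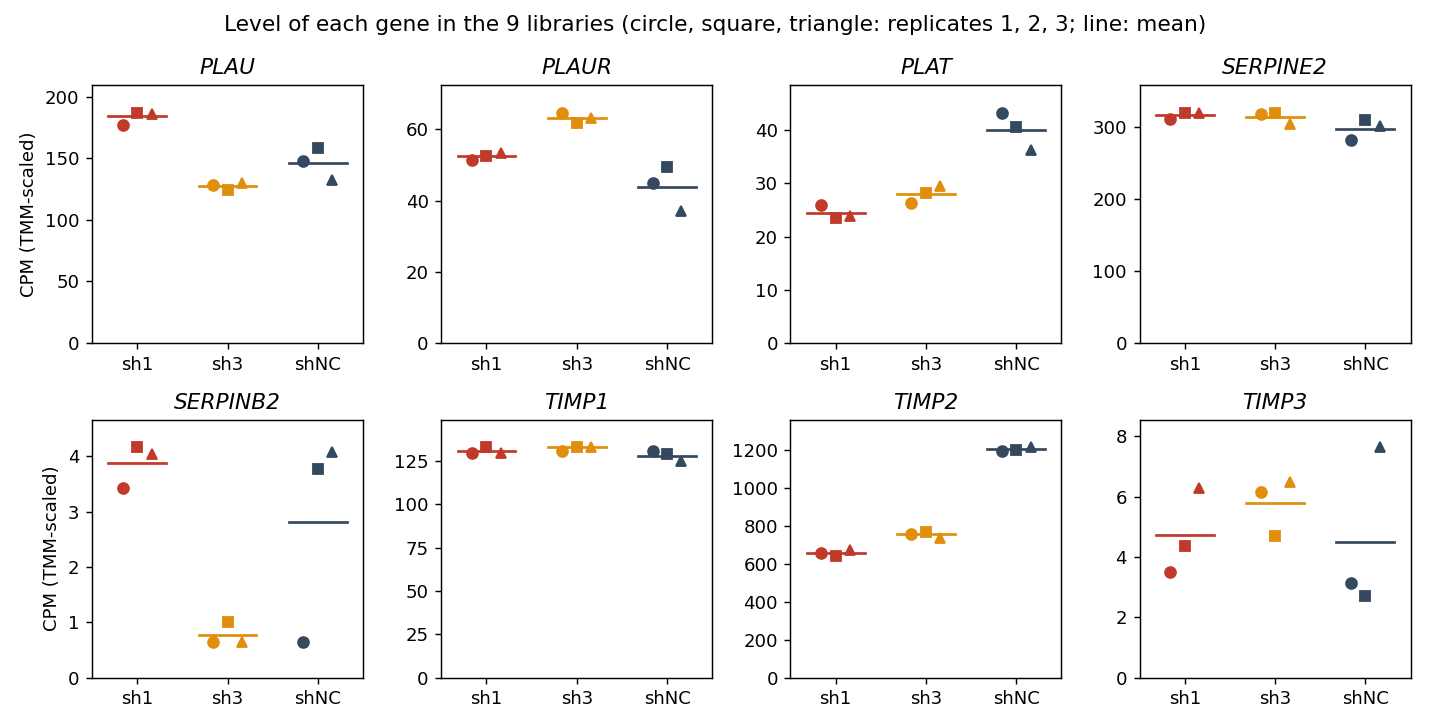
CPM of the 8 genes in each library, with sh1, sh3 and shNC from left to right, replicates 1, 2 and 3 as circle, square and triangle, the group mean as a line, and each vertical axis starting at 0. TIMP2 lies at 641 to 673 CPM in sh1 and 736 to 767 CPM in sh3, below all 3 shNC libraries at 1192 to 1213 CPM, while SERPINB2 in shNC replicate 1 lies at 0.639 CPM, within the sh3 range.

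PLAU (ENSG00000122861, GRCh38 chromosome 10, 73909177 to 73917494, plus strand) encodes urokinase. It had 177, 187 and 186 CPM in the sh1 libraries, 128, 124 and 130 CPM in the sh3 libraries, and 148, 158 and 132 CPM in the shNC libraries. All sh1 libraries were above all shNC libraries and all sh3 libraries were below them, the shNC replicate 3 library by only a small margin. The log2 fold change was 0.33 ± 0.055 in sh1 (SE, adjusted p = 4.6e-04) and -0.20 ± 0.055 in sh3 (adjusted p = 0.02). The sh1 rise was called under every alternative run. The fall in sh3 was not called without shNC replicate 1 (-0.18, adjusted p = 0.068), shNC replicate 2 (-0.13, 0.085), sh3 replicate 1 (-0.20, 0.052) or sh3 replicate 2 (-0.17, 0.081), and was -0.27 (adjusted p = 3.5e-04) without shNC replicate 3. The difference between the hairpins, sh1 minus sh3, was 0.53 ± 0.055 (adjusted p = 3.3e-05). C10orf55, which lies antisense across PLAU, had 67 to 125 counts per library, at most 1.68% of the PLAU count.

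PLAUR (ENSG00000011422, chromosome 19, 43646095 to 43670169, minus strand) encodes the urokinase receptor, and its printed promoter holds an AP-1 type match. It had 51.3, 52.6 and 53.4 CPM in sh1, 64.7, 61.9 and 63.2 CPM in sh3, and 44.8, 49.3 and 37.1 CPM in shNC. The 3 groups did not overlap, with sh3 highest and shNC lowest, and shNC had the widest spread. PLAUR rose by 0.26 ± 0.08 in sh1 (SE, edgeR adjusted p = 0.021) and by 0.53 ± 0.08 in sh3 (adjusted p = 4.2e-04). The sh1 call was lost without sh1 replicate 2 (adjusted p = 0.051) or sh1 replicate 3 (0.059), and the sh1 value was 0.16 (adjusted p = 0.025) without shNC replicate 3, where PLAUR was lowest. Between the hairpins the value was -0.27 ± 0.079 (adjusted p = 0.027), and this call was lost when any of the 6 sh1 or sh3 libraries was left out (adjusted p = 0.056 to 0.085).

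PLAT (ENSG00000104368, chromosome 8, 42174718 to 42207709, minus strand) encodes the tissue-type activator, best known for dissolving fibrin clots. It had 25.9, 23.5 and 23.8 CPM in sh1, 26.3, 28.2 and 29.5 CPM in sh3, and 43.3, 40.5 and 36.3 CPM in shNC. Every knockdown library was below every shNC library. The fall was 1.64-fold in sh1 (log2 -0.72 ± 0.072, SE, edgeR adjusted p = 9.3e-06) and 1.43-fold in sh3 (log2 -0.52 ± 0.072, adjusted p = 2.4e-04), and both calls held under every alternative run. Between the hairpins PLAT differed by -0.20 with a 95% interval of -0.36 to -0.041, which was not called (adjusted p = 0.065), although sh1 and sh3 did not overlap. It was called without shNC replicate 3 (adjusted p = 0.031) and, at the threshold, without shNC replicate 1 (0.05 after rounding).

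Per length, in the FPKM the authors deposited, PLAU exceeded PLAT in every library. The ratio of PLAU to PLAT was 20 ± 1.63 in sh1, 12 ± 0.752 in sh3 and 9.62 ± 0.655 in shNC (SD, n = 3 each). The ratio of PLAU to PLAUR was 5.3 ± 0.0719 in sh1, 3.04 ± 0.0575 in sh3 and 5.08 ± 0.266 in shNC. The sh3 libraries thus lay at 3 to 3.11 urokinase FPKM per receptor FPKM, below the ranges of the other groups (5.24 to 5.38 in sh1 and 4.86 to 5.37 in shNC, which overlapped). These ratios are descriptions of transcripts with no test of their own, and protein was not measured here.

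**Figure D2:**
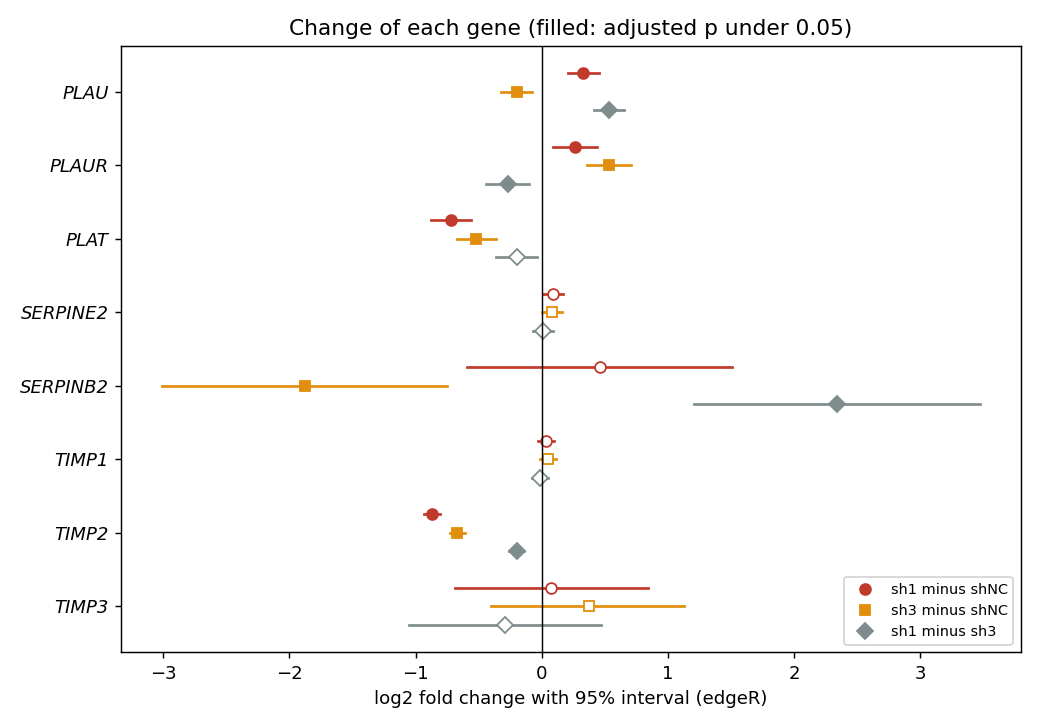
Log2 fold changes of the 8 genes with 95% intervals from edgeR for sh1 minus shNC, sh3 minus shNC and sh1 minus sh3, filled where the adjusted p was under 0.05. TIMP2, PLAT and PLAUR lie on the same side of 0 with both hairpins, PLAU lies at 0.33 in sh1 and -0.20 in sh3, and the intervals of SERPINB2 and TIMP3 are the widest of the 8 genes.

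Of the serpins, SERPINE2 (ENSG00000135919, chromosome 2, 223975045 to 224039290, minus strand) encodes protease nexin 1, a secreted inhibitor of thrombin, urokinase and tissue-type activator. It had 311, 319 and 319 CPM in sh1, 318, 320 and 304 CPM in sh3, and 282, 310 and 301 CPM in shNC. The sh1 libraries lay just above the shNC libraries, while sh3 and shNC overlapped. Neither change was called: the log2 fold change was 0.089 in sh1 (95% interval 0.0094 to 0.17, edgeR adjusted p = 0.075) and 0.079 in sh3 (-0.00064 to 0.16, adjusted p = 0.14). Without shNC replicate 2 the sh1 value was 0.12 and was called (adjusted p = 0.027). Between the hairpins the difference was 0.01 (-0.069 to 0.09, adjusted p = 0.88), and its sign turned under library totals, under limma and without sh3 replicate 3.

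SERPINB2 (ENSG00000197632, chromosome 18, 63871692 to 63903879, plus strand) encodes plasminogen activator inhibitor 2, a mostly intracellular serpin known as an inducible gene, and its printed promoter holds both an AP-1 type match and a TATA box. It was far less abundant than SERPINE2, with 3.43, 4.16 and 4.04 CPM in sh1, 0.644, 1.01 and 0.638 CPM in sh3, and 0.639, 3.76 and 4.07 CPM in shNC. In counts these were 208, 241 and 276 in sh1, 44, 61 and 39 in sh3, and 43, 252 and 238 in shNC. The shNC replicate 1 library was at the sh3 level and the other shNC libraries were at the sh1 level, so sh3 and shNC overlapped, while every sh3 library was below every sh1 library.

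The log2 fold change of SERPINB2 in sh3 was -1.88 ± 0.51 (SE, edgeR adjusted p = 0.017). Without shNC replicate 1 it was -2.35 (adjusted p = 4.6e-05), and the call was lost without shNC replicate 2 (-1.61, adjusted p = 0.066), shNC replicate 3 (-1.52, 0.056), sh3 replicate 1 (-1.77, 0.068) or sh3 replicate 3 (-1.76, 0.07). In sh1 the value was 0.46 ± 0.48 and was not called (adjusted p = 0.5), with a 95% interval of -0.59 to 1.51. It was -0.011 without shNC replicate 1. The difference between the hairpins, 2.34 ± 0.52 or 5.06-fold higher in sh1 (adjusted p = 0.0058), compares no shNC level and was 2.34 (adjusted p = 2.6e-05) without shNC replicate 1.

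TIMP1 (ENSG00000102265, chromosome X, 47582408 to 47586789, plus strand), a secreted inhibitor of many metalloproteinases, had similar levels in all 9 libraries. It had 130, 133 and 130 CPM in sh1, 131, 133 and 133 CPM in sh3, and 131, 129 and 125 CPM in shNC. The ranges of sh1 and shNC overlapped. All sh3 libraries lay above all shNC libraries, the closest pair both rounding to 131 CPM. The log2 fold change was 0.031 in sh1 (95% interval -0.032 to 0.093, edgeR adjusted p = 0.45) and 0.046 in sh3 (-0.017 to 0.11, adjusted p = 0.29), and the sign in sh1 turned under library totals and limma. SYN1 and ENSG00000283743 lie antisense across TIMP1 and had at most 0.419% and 0.463% of its count.

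TIMP2 (ENSG00000035862, chromosome 17, 78852977 to 78922401, minus strand), the TIMP that bridges MMP14 and the MMP2 precursor, fell with both hairpins and had the smallest adjusted p of the 8 genes in each. It had 657, 641 and 673 CPM in sh1, 758, 767 and 736 CPM in sh3, and 1192, 1199 and 1213 CPM in shNC. The 3 groups were well apart, with sh1 lowest and shNC highest. TIMP2 was 1.83-fold lower in sh1 (log2 -0.87 ± 0.027, SE, edgeR adjusted p = 1.5e-09) and 1.59-fold lower in sh3 (log2 -0.67 ± 0.027, adjusted p = 4.9e-08). The hairpins also differed from each other, with sh1 minus sh3 at -0.20 ± 0.027 (adjusted p = 2.2e-04). All 3 calls held under every alternative run, with values of -0.91 to -0.85 in sh1 and -0.70 to -0.65 in sh3. CEP295NL, within the TIMP2 locus on the same strand, had 37 to 85 counts per library, at most 0.189% of the TIMP2 count. ENSG00000279339, antisense within that locus, had at most 0.0488% of it.

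TIMP3 (ENSG00000100234, chromosome 22, 32801705 to 32863041, plus strand) encodes the TIMP that stays bound to the extracellular matrix and also inhibits ADAM17. It was low, with 3.51, 4.37 and 6.27 CPM in sh1, 6.15, 4.69 and 6.49 CPM in sh3, and 3.15, 2.72 and 7.63 CPM in shNC. All groups overlapped, and shNC replicate 3 was the highest of the 9 libraries. No change was called: the log2 fold change was 0.074 in sh1 (95% interval -0.69 to 0.84, edgeR adjusted p = 0.9) and 0.37 in sh3 (-0.40 to 1.13, adjusted p = 0.51). Without shNC replicate 3 the values were 0.69 (adjusted p = 0.045) and 0.98 (adjusted p = 0.012), both called, while without shNC replicate 1 or 2 the sh1 value was negative (-0.13 and -0.19). SYN3, antisense to TIMP3, had 0 to 11 counts per library.

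Per length, TIMP2 was the most abundant of the 8 transcripts, with a mean of 142 FPKM over the 9 libraries, above 99.4% of tested genes. TIMP1 followed at 83 FPKM, then PLAU at 47.3, SERPINE2 at 31.7, PLAUR at 10.9 and PLAT at 3.64 FPKM. TIMP3 at 0.996 FPKM and SERPINB2 at 0.828 FPKM were the lowest, and their ranges overlapped in sh1 and shNC. In sh3 TIMP3, at 0.941 to 1.31 FPKM, was above SERPINB2, at 0.214 to 0.342 FPKM. The other neighbours in this order did not overlap within any group. The summed level of the 3 TIMPs was 189 ± 0.961 FPKM in sh1, 210 ± 2.28 FPKM in sh3 and 281 ± 0.691 FPKM in shNC (SD, n = 3 each). TIMP2 made up 56% ± 0.85 of that sum in sh1, 59% ± 0.553 in sh3 and 70.4% ± 0.547 in shNC.

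**Figure D3:**
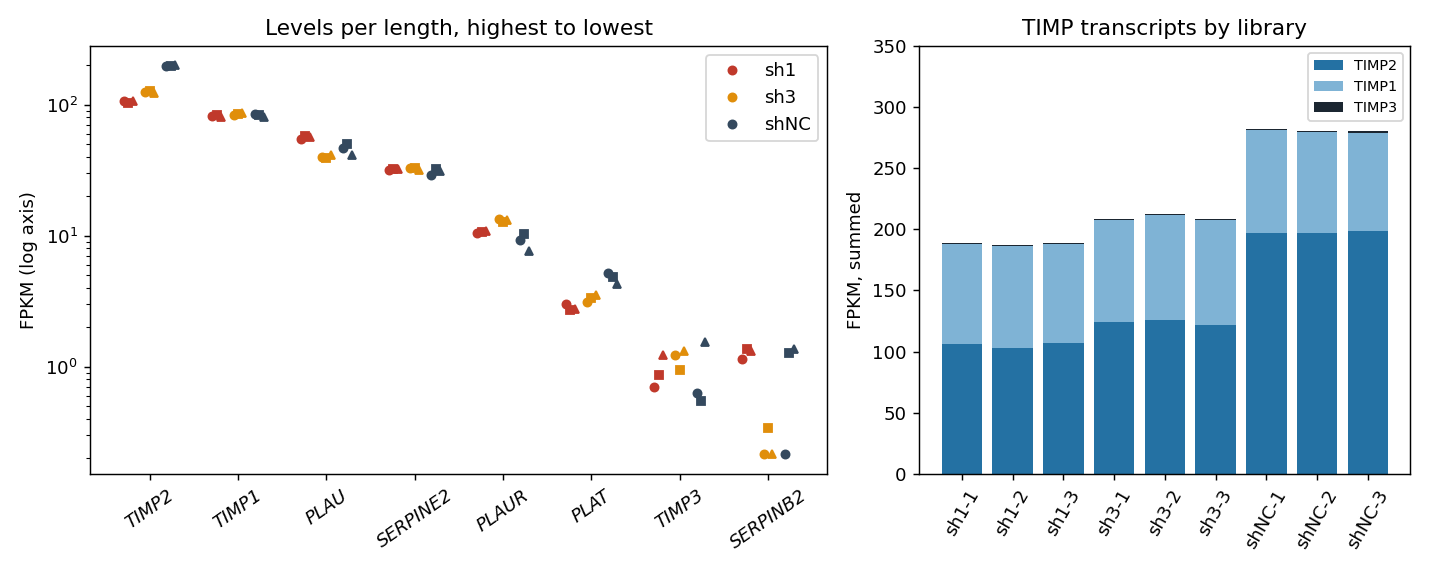
Left, FPKM of the 8 genes per library on a log axis, from the most to the least abundant, with sh1, sh3 and shNC side by side and replicates 1, 2 and 3 as circle, square and triangle. Right, FPKM of TIMP2, TIMP1 and TIMP3 stacked for each library on an axis from 0, where the TIMP2 part is 103 to 107 FPKM in sh1, 122 to 126 FPKM in sh3 and 197 to 199 FPKM in shNC, and the TIMP1 part lies between 79.9 and 85.5 FPKM throughout.

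Among the other 20 genes of plasminogen activation, 18 were tested. In sh1 cells 3 rose and 4 fell (38.9% called), and in sh3 cells 4 rose and 2 fell (33.3%), close to the shares of all genes, with medians of -0.035 and 0.077 beside -0.019 and -0.0096 over all tested genes. PLGRKT, a membrane receptor that binds plasminogen, rose by 0.85 ± 0.092 in sh1 and 0.51 ± 0.092 in sh3 on the log2 scale (SE, edgeR adjusted p = 1.6e-05 and 0.0015). THBD (thrombomodulin, which directs thrombin to protein C and to a carboxypeptidase that slows fibrin lysis) had 28 ± 0.843 CPM in sh1, 96.4 ± 4.46 CPM in sh3 and 138 ± 15.1 CPM in shNC (SD, n = 3 each). It was 4.91-fold lower in sh1 and 1.43-fold lower in sh3 (edgeR adjusted p = 1.8e-09 and 1.7e-04). MRC2, an endocytic collagen receptor that associates with the urokinase receptor, was 1.16-fold lower in sh1 and 1.17-fold lower in sh3 (adjusted p = 0.0053 and 0.0068). ENO1, an abundant glycolytic enzyme that also binds plasminogen at the cell surface, was not called in either (-0.063 and -0.041, adjusted p = 0.07 and 0.28), though 6 of 17 alternatives called it in sh1.

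ST14 encodes matriptase, a membrane serine protease that can activate urokinase. It had 0, 0 and 14 counts in sh1, 144, 120 and 78 counts in sh3, and 7, 0 and 0 counts in shNC. Counts were high in all 3 sh3 libraries and at 0 in 4 of the other 6, and edgeR called it in sh3 (adjusted p = 0.0029, log2 5.57 ± 1.1), while DESeq2 gave an adjusted p of 0.055. With shNC near the floor the size of this change is poorly set, and leaving out single libraries gave 4.99 (without shNC replicate 2) to 9.82 (without shNC replicate 1), called each time. The hepatocyte markers also differed between groups. Their sum was 2.58 to 2.88 FPKM in sh1, 2.87 to 6.49 FPKM in sh3 and 0.672 to 0.833 FPKM in shNC. Of them SERPINA1 alone had a mean over the 9 libraries above 1 FPKM. SERPINA1 itself had 2.53 to 2.81 FPKM in sh1, 0.977 to 1.06 FPKM in sh3 and 0.596 to 0.697 FPKM in shNC. In sh3 the rest of the list thus held the larger part of the sum. The part of the hepatocyte markers in these results was not tested.

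Of the other clade B serpins, mostly intracellular inhibitors, 6 were tested, and 5 fell and none rose in sh1 (83.3% called), with a median of -0.62, beside 38.7% called, 18.8% lower, and a median of -0.019 over all tested genes. In sh3 3 fell and 1 rose (66.7%), with a median of -0.15, beside 26.9% called, 12.4% lower, and a median of -0.0096. SERPINB1, an inhibitor of neutrophil proteases, had 42.8 ± 1.42 CPM in sh1, 60.4 ± 1.69 CPM in sh3 and 95.3 ± 9.03 CPM in shNC (SD, n = 3 each), a log2 fold change of -1.16 ± 0.062 in sh1 and -0.66 ± 0.061 in sh3 (SE, edgeR adjusted p = 5.6e-08 and 1.1e-05). SERPINB6 (-0.68 and -0.25) and SERPINB9, the granzyme B inhibitor (-0.42 and -0.23), fell with both hairpins. SERPINB1, SERPINB9 and SERPINB6, the 3 that fell in sh3, lie close together on chromosome 6 (2832332 to 2971777, minus strand). The part of their position in the shares above was not tested. SERPINB5 (maspin) fell in sh1 by 1.37 ± 0.11 on the log2 scale (adjusted p = 1.8e-06). In sh3 it was 0.33 ± 0.11 (adjusted p = 0.044), a call lost under 10 of 17 alternatives, while the difference between the hairpins was -1.70 ± 0.11 (adjusted p = 9.9e-07).

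Of 8 tested secreted or endoplasmic reticulum serpins, 1 rose and 1 fell in sh1 (25% called), and 3 rose and 1 fell in sh3 (50%), with medians of -0.065 and 0.014. Over all tested genes 38.7% were called in sh1 and 26.9% in sh3, with medians of -0.019 and -0.0096. SERPINA1, alpha-1-antitrypsin and itself one of the hepatocyte markers, had 14.8 ± 0.904 CPM in sh1, 5.41 ± 0.213 CPM in sh3 and 3.4 ± 0.273 CPM in shNC (SD, n = 3 each). It rose by 2.12 ± 0.11 in sh1 and 0.67 ± 0.11 in sh3 (log2, SE, edgeR adjusted p = 4.4e-08 and 6.7e-04). SERPINH1, a collagen chaperone of the endoplasmic reticulum, rose in sh3 (0.30 ± 0.037, adjusted p = 9.2e-05), was not called in sh1 (0.063, adjusted p = 0.22), and differed between the hairpins (-0.24 ± 0.037, adjusted p = 5.6e-04).

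Among 29 tested metalloproteinases and partners that TIMPs meet, of 32 listed, 9 rose and 8 fell in sh1 (58.6% called), and 6 rose and 8 fell in sh3 (48.3%), with medians of 0.03 and -0.18. The shares of all tested genes were 38.7% in sh1 and 26.9% in sh3, and their medians -0.019 and -0.0096. MMP14, the membrane protease of the TIMP2 complex, had 6.98 ± 0.976 CPM in sh1, 16.2 ± 2.57 CPM in sh3 and 4.08 ± 0.212 CPM in shNC (SD, n = 3 each). MMP14 was 1.71-fold higher in sh1 and 3.97-fold higher in sh3 (edgeR adjusted p = 9.6e-04 and 1.7e-06), and the hairpins differed by -1.21 ± 0.14 (SE, adjusted p = 7.2e-05). MMP2, whose precursor that complex activates, had 427 ± 8.66 CPM in sh1, 416 ± 5.32 CPM in sh3 and 307 ± 37.8 CPM in shNC, and was 1.39-fold and 1.35-fold higher (adjusted p = 1.3e-04 and 4.8e-04). Of the 3 transcripts of this complex, TIMP2 was thus lower and both proteases were higher with each hairpin.

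ADAM17, the sheddase that TIMP3 inhibits, fell by 0.30 ± 0.043 in sh1 and 0.23 ± 0.043 in sh3 (log2, SE, edgeR adjusted p = 1.7e-04 and 0.0017). ADAM10, a related sheddase inhibited by TIMP1 and TIMP3, fell by 0.20 ± 0.036 and 0.31 ± 0.036 (adjusted p = 7.8e-04 and 6.4e-05). CD82, a tetraspanin, rose by 0.98 ± 0.2 and 0.79 ± 0.2 (adjusted p = 0.0018 and 0.011). MMP3, a stromelysin, had 15.9 ± 2.64 CPM in sh1, 0.121 ± 0.115 CPM in sh3 and 9.73 ± 4.68 CPM in shNC (SD, n = 3 each). It was called in sh3 (log2 -6.35 ± 0.6, SE, adjusted p = 1.3e-05) and not in sh1 (0.71 ± 0.4, adjusted p = 0.19). Its sh3 counts were 0, 8 and 14, so the size of the fall in sh3 is poorly set. Leaving out single libraries gave -7.23 (without sh3 replicate 3) to -5.73 (without sh3 replicate 1) in sh3. All 17 alternatives gave -7.23 to -2.37 there, called each time. In sh1, leaving out single libraries gave 0.36 (without shNC replicate 1) to 0.99 (without shNC replicate 2), not called. MMP28 (epilysin) was 10-fold lower in sh1, at 0.705 ± 0.317 CPM beside 7.13 ± 0.828 CPM in shNC (adjusted p = 9.1e-07), and was not called in sh3 (-0.60, adjusted p = 0.066), though 6 of 17 alternatives called it, leaving out sh1 replicate 1 or sh1 replicate 3 among them. CD63, a tetraspanin that binds TIMP1 at the cell surface, had 317 ± 2.53 CPM in sh1, 312 ± 8.59 CPM in sh3 and 311 ± 11.3 CPM in shNC.

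Of 11 tested Kunitz-type and other protease inhibitors, 3 rose and 5 fell in sh1 (72.7% called), and 2 rose and 3 fell in sh3 (45.5%), with medians of -0.29 and -0.25, where all tested genes had 38.7% called in sh1 and 26.9% in sh3, and medians of -0.019 and -0.0096. TFPI2, a matrix-bound inhibitor of plasmin, rose by 0.56 ± 0.041 in sh1 and 0.30 ± 0.041 in sh3 (log2, SE, edgeR adjusted p = 6.2e-07 and 2.0e-04). TFPI, which inhibits the start of clotting, was 2.58-fold lower in sh1 and 1.61-fold lower in sh3 (adjusted p = 2.9e-08 and 1.4e-05). SLPI, a leukocyte protease inhibitor, was 1.86-fold and 2.46-fold lower (adjusted p = 7.6e-06 and 1.1e-06). SPINT2, a membrane inhibitor of matriptase and related proteases, was 1.35-fold and 1.38-fold lower (adjusted p = 1.8e-06 and 2.5e-06). SPINT1, its relative, rose in sh1 (0.58 ± 0.1, adjusted p = 5.7e-04) and had -0.25 ± 0.1 in sh3 (adjusted p = 0.09), with 0.83 ± 0.1 between the hairpins (adjusted p = 9.7e-05). VTN, SERPINA3, MMP12 and CST6, also taken by the rule for named genes, had group means of at most 0.458, 0.862, 0.301 and 0.562 CPM and are not described further.

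**Figure D4:**
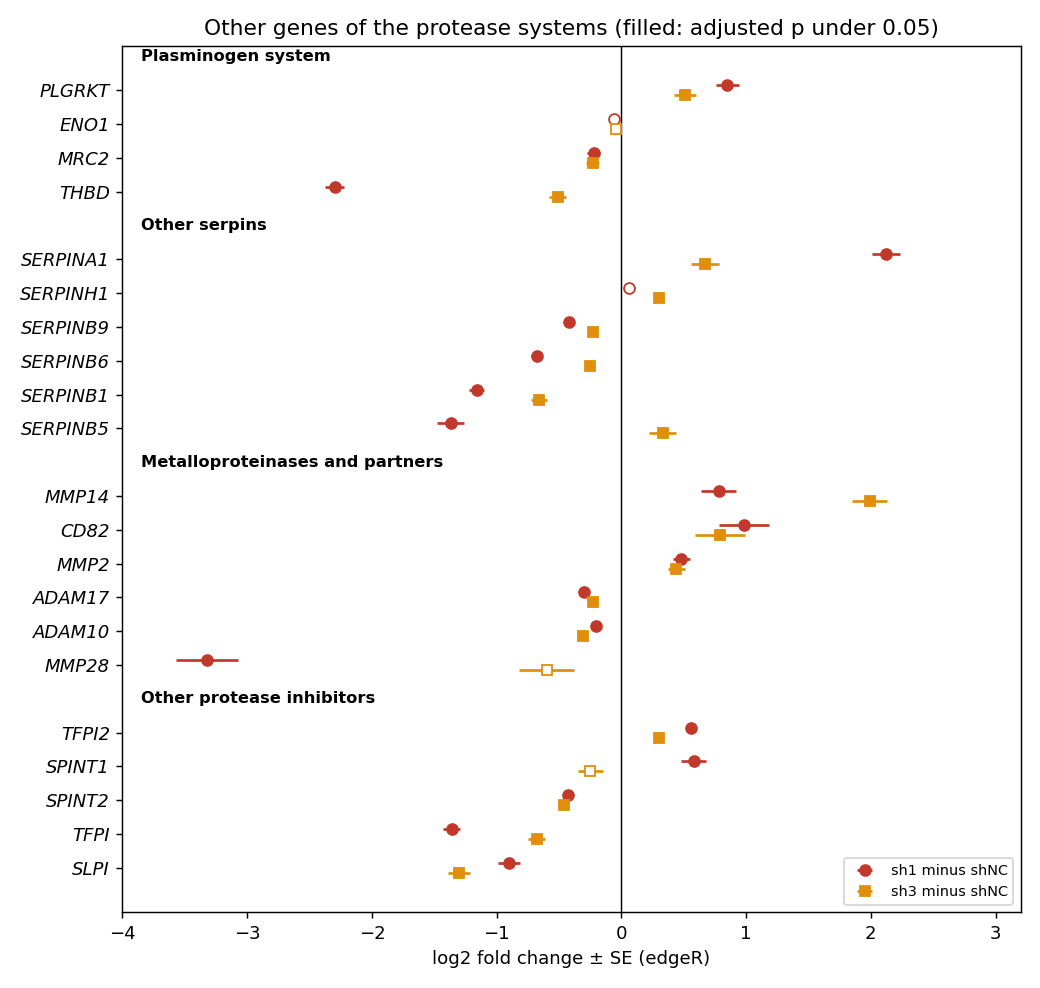
Log2 fold changes with SE from edgeR for the other protease-system genes whose fold changes the text names, apart from ST14 and MMP3, for sh1 minus shNC (circles) and sh3 minus shNC (squares), filled where the adjusted p was under 0.05. SERPINA1 lies furthest to the right of these genes with sh1 at 2.12, MMP14 furthest with sh3 at 1.99, and MMP28 in sh1 furthest to the left at -3.32.

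Over the 9 libraries, the genes whose log2 CPM followed each of the 8 most closely were taken by Pearson's r. This is a description, and the split into 3 groups weighs most on it where the groups of a gene lie apart. The search covered 11365 tested genes with a mean of at least 1 FPKM. The 8 genes, clone names, bare identifiers and pseudogenes were left out of it. TIMP2 was followed most closely by LDHA, which makes lactate from pyruvate (r = 0.9968), and by LRBA (0.9959). For PLAT they were the zinc transporter SLC30A1 (0.9931) and RSF1 (0.9924), for PLAU the kinesin KIF2A (0.9856) and AMTN (0.9827), and for PLAUR the class I antigen HLA-B (0.9758) and ZNF414 (0.9735). For SERPINE2 they were PPP1R21 (0.9719) and METTL8 (0.9703), for SERPINB2 NPTN-IT1 (0.9704) and NPAS2 (0.9676), and for TIMP1 LTBP4 and STK10 (0.9616 each). TIMP3 had the lowest leading values, with NDUFA13 (0.9406) and YOD1 (0.9259). All groups of TIMP3 overlapped, and the shNC libraries of SERPINB2 lay at 0.639, 3.76 and 4.07 CPM. NDUFA13, YOD1, PPP1R21 and METTL8 were called in no comparison, so values of r such as theirs also follow scatter within groups.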

How the data were processed

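RNA from 9 SKOV3 libraries was selected with oligo(dT), made into dUTP-marked libraries and sequenced in pairs, per the labels' protocols. The submitters' processing notes name GRCh38, HISAT2 2.2.1, cutadapt 1.9, StringTie 2.1.6, edgeR and DESeq2, with no roles. The authors deposited whole-number read counts per gene, not normalized. Beside them they deposited FPKM, a unit that scales for length and depth. The headers give only the name of that unit, not how the values were computed. Use of strand in counting is not stated in the sources at hand, so values of overlapping genes may share reads. Floors cover counting error only, as PCR duplicates are no separate molecules.

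Counts were fitted with edgeR 4.0.16 in R 4.3.3 (filterByExpr minimum 10, TMM, glmQLFit, glmQLFTest, all 9 libraries, 1 mean per group), with Benjamini-Hochberg adjustment over 21296 genes, two-sided. The SE is the absolute log2 fold change over the square root of F. The code was tested on simulated data. Alternatives were DESeq2 1.42.0, library totals, upper-quartile factors, no filter, limma 3.58.1 on log2(FPKM + 1) or log2(FPKM + 0.1), only the groups compared, a replicate block, and each library left out. FPKM was used for levels between genes.

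The members and gene lists were chosen with earlier results of these data known. Named genes were, per list, up to 3 highest and 3 lowest of those called alike with both hairpins (by the smaller change), up to 2 with the largest called difference between hairpins, and the gene of highest mean FPKM (1 item is not reported here); also genes overlapping a member, and the 2 most alike in pattern.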

Additional observations from a re-analysis of the deposited data

Results flagged for a closer look

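For 4 of the 8 genes the effects of the hairpins against the same shNC libraries differed from each other by edgeR's test of sh1 minus sh3 (adjusted p under 0.05). PLAU differed by 0.53 on the log2 scale, with the hairpins on opposite sides of shNC. SERPINB2 differed by 2.34, with every sh1 library above every sh3 library, and shNC holding libraries at both levels. PLAUR differed by -0.27 and TIMP2 by -0.20, in each case between changes of the same direction. Of all tested genes 25.9% were called in this comparison. The summed level of the epithelial markers, 719 to 749 FPKM in sh1 and 1145 to 1191 FPKM in sh3, also differed between the hairpins, and its part in these differences was not tested.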

How the results depend on the processing

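Of the 24 fold changes of the 8 genes, 13 kept their direction and their side of the threshold under all 17 alternatives. With DESeq2, SERPINE2 in sh1 (0.091, adjusted p = 0.04) and PLAT between the hairpins (-0.20, adjusted p = 0.046) were called. Among only the groups compared, PLAT between the hairpins was also called (-0.20, adjusted p = 0.034). With limma on log2(FPKM + 1) and log2(FPKM + 0.1), PLAUR in sh1 (0.22 and 0.24) and SERPINB2 in sh3 (-0.57 and -1.28) were not called, TIMP1 in sh1 was -0.0014 under both, and SERPINE2 between the hairpins was -0.019 and -0.02. Library totals gave -0.0067 for TIMP1 in sh1 and -0.0011 for SERPINE2 between the hairpins. The cause of these shifts was not tested.

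Leaving out each library in turn gave ranges for sh1 of 0.16 to 0.36 (PLAUR), 0.054 to 0.12 (SERPINE2), -0.011 to 0.82 (SERPINB2), -0.19 to 0.69 (TIMP3), -0.15 to 2.60 (STXBP6), 0.36 to 0.99 (MMP3) and -4.24 to 5.22 (ST14). For sh3 they were -0.27 to -0.13 (PLAU), -2.35 to -1.52 (SERPINB2), 0.11 to 0.98 (TIMP3), 1.22 to 3.54 (STXBP6), -7.23 to -5.73 (MMP3) and 4.99 to 9.82 (ST14). Between the hairpins they were -0.28 to -0.25 (PLAUR), -0.25 to -0.16 (PLAT) and -0.014 to 0.026 (SERPINE2). The number of the 8 genes called in sh3 ranged from 3 to 5. Where a library was left out, its group kept 2.

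Replicate numbers did not pair the libraries (correlations of deviations between same-numbered libraries -0.216 to 0.0585 over 12489 genes). With the replicate block TIMP2 was -0.87 in sh1 and -0.67 in sh3, and the block changed no call of the 8 genes, with 7951 genes called in sh1 and 5446 in sh3, beside 8243 and 5719 without it. Depth limits STXBP6 and ST14, which lie near the floor in several libraries, and MMP3 in sh3.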
